A study of Anopheles stephensi with 4 samples.

Results

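Reference genes whose RNA level in the fat body stood apart from the ovary, midgut and Malpighian tubules were described in adult females of the malaria mosquito Anopheles stephensi. A gene was called fat body-high when its FPKM + 1 (FPKM is the number of fragments per kilobase of a transcript after scaling for the size of the library) in fat body was at least 5 times that in each of the other 3 tissues. It was called fat body-low when that value was at most 1/3 of the value in each of the other 3 tissues. Of 12340 reference genes, 427 were fat body-high and 23 were fat body-low. The levels therefore chose the members, and levels are given below as a description, without a test. Position on the scaffolds was not used in the choice. Exon number and length were not used either, but they are read from an isoform picked by FPKM. The mix of isoforms is computed from the same FPKM values and is also a description.

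All 4 tissues were dissected from sugar-fed adult females, reared under a cycle of 12 h light and 12 h dark at 70% humidity and 27 °C, and all 4 groups share this state. The labels give no strain, age or treatment and do not say how many females a library pools. Each tissue had 1 library, run on 2 lanes, which are technical replicates, so each difference compares single libraries, has no replicate check and carries no p-value. Estimated depth ran from 27490311 fragments in midgut to 36316835 in Malpighian tubules, with 34929333 in fat body and 34831295 in ovary.

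The fat body of an insect combines tasks that vertebrates divide between liver and adipose tissue. It stores lipid and glycogen, makes most of the proteins of the haemolymph and secretes immune peptides. In female mosquitoes it also makes the yolk protein precursors after a blood meal, and these females had been fed sugar. The Malpighian tubules are the excretory organs and the midgut digests the meal. Gene names are not paired with the identifiers in the files, and the reference table used here contained 0 of the identifiers. The tissue labels could therefore not be checked against markers such as vitellogenin or apolipophorin, and gene roles are not given. Positions are those of the main isoform on the authors' scaffolds. The main isoform is the transcript with the highest FPKM summed over the 4 tissues, and exon numbers and spliced lengths are also taken from it. Bounds are those of the authors, summed over the transcripts of a gene.

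The 427 fat body-high genes were 4.79% of the 8923 genes that reached 1 FPKM in any tissue, and the 23 fat body-low genes were 0.258%. By the same limits, 182 genes (2.04%) were high in ovary, and midgut and Malpighian tubules had 246 (2.76%) and 145 (1.63%). The low sets held 538 genes (6.03%) for ovary, 187 (2.1%) for midgut and only 9 (0.101%) for Malpighian tubules. Fat body had the most high genes of the 4 tissues with the deposited FPKM. That order changed when the column sums were made equal. The deposited FPKM summed to 935008 in fat body and 1272696 in midgut, but to 452542 in ovary and 603002 in Malpighian tubules. After each column was scaled to the same sum, 345 genes (3.87%) were high and 71 (0.796%) low in fat body, while 751 genes (8.42%) were high in ovary.

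Of the 427 high genes, 343 were high under both scalings, 84 were lost with equal sums and 2 were gained. The 84 lost genes had ratios of fat body to the next tissue between 5.01 and 9.46 on the FPKM + 1 scale with deposited values and between 2.44 and 4.99 with equal sums. With equal sums their next tissue was ovary in 45 and Malpighian tubules in 39, the tissues that the scaling raises relative to fat body, and midgut in 0. The scaling multiplied fat body by 1.07 and midgut by 0.786. A high gene with midgut next after scaling could therefore not be lost, and this 0 was fixed in advance. Of the 23 low genes, 20 were low under both scalings, 3 were lost and 51 were gained. The gained genes were between 1.52 and 2.85 times lower in fat body than in the lowest other tissue with deposited values. The low set thus changed more with equal sums than the high set did. This did not hold for every scaling: with median-of-ratios scaling 420 genes were high and 23 low.

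**Figure D1:**
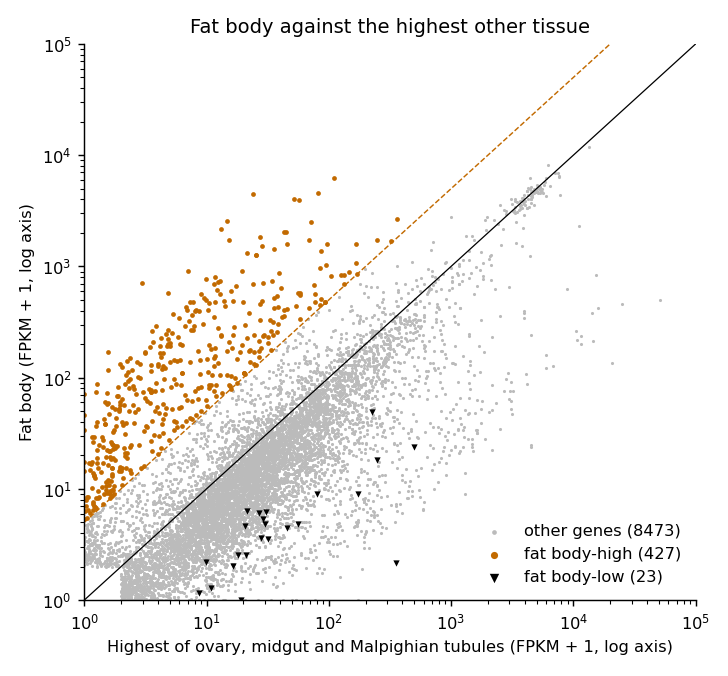
Level of each of the 8923 expressed genes in fat body (vertical axis) against its highest level in the other 3 tissues (horizontal axis), both in FPKM + 1 on log axes. The solid line marks equal levels and the dashed line a ratio of 5; the 427 fat body-high genes lie on or above the dashed line, and the 23 fat body-low genes below the solid line are marked as triangles.

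In fat body, the 427 high genes ranged from 4.38 to 6197 FPKM with a median of 89.3 FPKM and quartiles of 28.8 and 286 FPKM. The median of the other expressed genes in fat body was 9.59 FPKM, with quartiles of 3.17 and 28.3 FPKM. The high genes had median levels of 1.05 FPKM in midgut, 1.03 FPKM in ovary and 3.34 FPKM in Malpighian tubules. Their highest levels there were 247, 169 and 362 FPKM. In RNA from a whole tissue, fewer cells of a type and less RNA per cell cannot be told apart.

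The high genes held 13.8% of the FPKM sum of fat body and 17.6% of its estimated fragments. The same genes held 0.687% of the FPKM sum in ovary, and in midgut and Malpighian tubules they held 0.208% and 0.928%. For comparison, the midgut-high genes held 25.5% of the FPKM sum of midgut, the Malpighian tubules-high genes 8.27% of that of Malpighian tubules and the ovary-high genes 3.04% of that of ovary. The fat body set was thus the largest by number with deposited FPKM, and the midgut set held the larger share of its tissue.

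**Figure D2:**
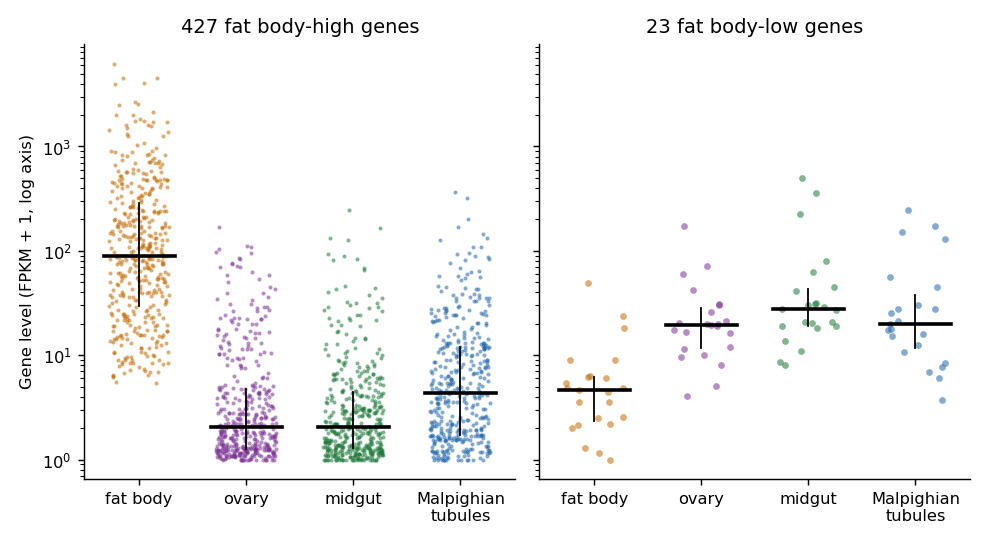
Levels of the members in each tissue, in FPKM + 1 on a log axis, with 1 point per gene, a thick bar at the median and a thin line from the first to the third quartile. The fat body-high genes have a median of 89.3 FPKM in fat body and medians of 1.03 to 3.34 FPKM elsewhere, and the fat body-low genes have a median of 3.68 FPKM in fat body and medians of 18.3 to 27.0 FPKM elsewhere.

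A small number of genes carried most of this share. The 2 most abundant high genes held 8.37% of the FPKM of the set, the 10 most abundant 27.3% and the 50 most abundant 61.1%. At 1000 FPKM or more in fat body, 27 genes held 47.3% of the set, and the 179 genes from 100 to 1000 FPKM held 46.2%. The 185 genes from 10 to 100 FPKM held 6.30%, and the 36 genes below 10 FPKM held 0.205%. Fat body-high genes made up 8 of the 100 most abundant reference genes of fat body, 129 of the 500 most abundant (25.8%) and 212 of the 1000 most abundant (21.2%), beside 4.79% of all expressed genes. These shares rest on the fat body level, which the rule also used.

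The genes at each level differed in how far they stood from the next tissue. The median ratio was 6.07 for the genes below 10 FPKM, 13.0 from 10 to 100 FPKM, 20.3 from 100 to 1000 FPKM and 47.2 at 1000 FPKM or more. The added 1 FPKM lowers the ratio of weakly expressed genes, so this order is in part set by the scale. Over all 427 genes the median ratio was 13.8 and the highest 236. Ratios of at least 10 were reached by 266 genes, of at least 20 by 161, of at least 50 by 49 and of at least 100 by 8. With equal sums these counts were 219, 134, 17 and 4. The median ratio over all expressed genes was 0.567.

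A group of 117 high genes was below 1 FPKM in all 3 other tissues. These genes were moderate in fat body, from 4.38 to 168 FPKM with a median of 16.1 FPKM. The group held 35 of the 36 high genes below 10 FPKM in fat body, 79 of 185 from 10 to 100 FPKM, 3 of 179 from 100 to 1000 FPKM and 0 of 27 above. The limit of 5 times on the FPKM + 1 scale fixes the first of these counts in part, since a high gene below 10 FPKM in fat body has to stay below 1.2 FPKM in every other tissue. An exact 0 was rare: 6 high genes were listed at 0 in all 3 other tissues and 29 in at least 1. The authors' bounds of fat body did not overlap those of any other tissue for 425 of the 427 high genes and 22 of the 23 low genes. The members were chosen for a gap in these same values, so the counts describe them and support nothing. The share of all expressed genes with non-overlapping bounds is not given here, so the counts have no background. When the limits were applied to the bounds themselves, 321 high genes and 2 low genes were called. These bounds hold the error of the estimate and not the spread between mosquitoes. The high genes had a median of 4193 estimated fragments in fat body, and 3 of them had fewer than 20.

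The most abundant fat body-high gene was ASTEI02815 (scaffold_00011, 1367499 to 1368309, minus strand, 3 exons, 626 bases). It stood at 6197 FPKM in fat body (bounds 6056 to 6338), 27.7 FPKM in midgut, 21.6 FPKM in ovary and 109 FPKM in Malpighian tubules. Fat body was far above the rest, and Malpighian tubules were above the 2 others. ASTEI07180 (scaffold_00050, 920138 to 921881, plus strand, 2 exons, 1666 bases) had the same order, at 4575 FPKM in fat body (4424 to 4727), 20.5 FPKM in midgut, 13.5 FPKM in ovary and 81.1 FPKM in Malpighian tubules. The annotated model of the first held 0.0687% of its fat body level and that of the second 22.4%, so assembled isoforms carried most of both.

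The third gene lay on scaffold_00063 (215721 to 217005, 2 exons, 711 bases) and had 4498 FPKM in fat body, 8.34 FPKM in midgut, 8.36 FPKM in ovary and 22.9 FPKM in Malpighian tubules. Its ratio of 188 was the highest of the 12 most abundant genes. The gene on scaffold_00078 (551250 to 552553, 6 exons, 910 bases) had 4034 FPKM in fat body, 23.0 FPKM in midgut, 10.3 FPKM in ovary and 51.3 FPKM in Malpighian tubules. The gene on scaffold_00008 (3136317 to 3138752, 2 exons, 1490 bases) had 3938 FPKM in fat body, 21.6 FPKM in midgut, 9.34 FPKM in ovary and 56.5 FPKM in Malpighian tubules. With deposited FPKM, all 3 kept the order of the first pair or had ovary and midgut at nearly the same level.

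The sixth gene differed from these. On scaffold_00021 (1402739 to 1406502, 3 exons, 1702 bases), it had 2677 FPKM in fat body, 28.2 FPKM in midgut, 38.6 FPKM in ovary and 362 FPKM in Malpighian tubules. Its ratio was 7.39, and 4.77 with equal sums, so it alone of the 12 was not called under that scaling. The gene on scaffold_00085 (140560 to 143726, 5 exons, 2678 bases) had 2512 FPKM in fat body, 14.97 FPKM in midgut, 70.1 FPKM in ovary and 58.8 FPKM in Malpighian tubules. Among the 12 it was the only gene with ovary as the next tissue and the one with the most isoforms expressed in fat body, 4.

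Of the 5 remaining genes among the 12, those on scaffold_00041 (1409030 to 1411278, 3 exons) and scaffold_00130 (43936 to 44747, 4 exons) stood furthest from the next tissue. The first had 2535 FPKM in fat body, 9.40 FPKM in midgut, 5.70 FPKM in ovary and 13.6 FPKM in Malpighian tubules. The second had 2149 FPKM in fat body, 7.76 FPKM in midgut, 3.75 FPKM in ovary and 12.2 FPKM in Malpighian tubules. Their ratios were 174 and 163. Both are short, at 402 and 561 bases.

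A pair of genes on scaffold_00058 and a further gene on scaffold_00078 complete the 12. The gene at 253241 to 253730 (3 exons, 345 bases) had 2023 FPKM in fat body, 10.5 FPKM in midgut, 8.10 FPKM in ovary and 41.9 FPKM in Malpighian tubules. The gene at 525290 to 530009 (5 exons, 1701 bases) had 2019 FPKM in fat body, 13.4 FPKM in midgut, 12.0 FPKM in ovary and 43.7 FPKM in Malpighian tubules. An assembled transcript on the opposite strand, at 1449 FPKM in fat body, overlaps the end of the latter gene. No source used here states a stranded protocol, so its own level is uncertain. The second gene on scaffold_00078 (373719 to 374740, 2 exons, 942 bases) had 1838 FPKM in fat body, 18.4 FPKM in midgut, 7.01 FPKM in ovary and 26.2 FPKM in Malpighian tubules. The 12 genes lay on 10 scaffolds, had 2 to 6 exons and a median length of 926 bases, and 11 of them had Malpighian tubules as the next tissue.

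The gene just inside the upper limit, on scaffold_00073 (annotated at 334931 to 336432), had a ratio of 5.01, with 87.9 FPKM in fat body, 10.8 FPKM in midgut, 15.6 FPKM in ovary and 16.8 FPKM in Malpighian tubules. The gene just outside, on scaffold_00065 (annotated at 761611 to 767285), had a ratio of 4.98, with 337 FPKM in fat body, 57.1 FPKM in midgut, 44.8 FPKM in ovary and 66.9 FPKM in Malpighian tubules. At a limit of 2 in place of 5, 898 genes would have been high (10.1% of those expressed).

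Malpighian tubules were the next tissue for most fat body-high genes. They had the second highest level for 292 of the 427 (68.4%), ovary for 86 (20.1%) and midgut for 49 (11.5%). Among all 8923 expressed genes, Malpighian tubules were the highest of these 3 tissues in 24.0%, ovary in 42.4% and midgut in 33.6%. With equal sums the shares were 76.5% of the 345 high genes and 32.2% of the expressed genes. These shares are a description, read from the same FPKM values that the rule used.

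As a share of the fat body level, the high genes stood at a median of 2.93% in Malpighian tubules (quartiles 1.63 and 6.65), 1.06% in ovary (0.376 and 3.64) and 0.878% in midgut (0.473 and 2.36). With equal sums the medians were 4.55%, 2.18% and 0.645%. In the high genes at 500 FPKM or more in fat body, the share in Malpighian tubules had a median of 2.16% and quartiles of 1.57 and 6.66, and it ran from 0.219% to 19.0%. The same genes went down to 0.0525% in ovary and 0.185% in midgut. Whether fat body tissue came along with any of the dissected organs was not tested. Of the high genes, 26 were at least 5 times higher in Malpighian tubules than in both ovary and midgut on the FPKM + 1 scale, against 2 for ovary and 1 for midgut over the remaining pair. That is 6.09%, 0.468% and 0.234% of the high genes, beside 2.89%, 4.12% and 3.32% of all expressed genes. With equal sums the counts were 19, 2 and 0 of the 345 high genes, beside 3.69%, 9.97% and 2.19% of the expressed genes.

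The choice of members did not use exon number or length. FPKM itself is a level per length, however, and it also picked the main isoform. The high genes had a median of 4 exons (95% interval of the median 3 to 4) and a median spliced length of 1437 bases (1335 to 1554). The 8496 expressed genes that were not high had a median of 4 exons and 1803 bases (1756 to 1855). The high genes were thus shorter in spliced length, with the same median exon number. A single exon was found in 40 high genes (9.37%, 6.95 to 12.5) and in 8.40% of the others, and 10 or more exons in 28 (6.56%, 4.58 to 9.31) and in 7.53%. Intervals of shares here and below are 95% Wilson intervals; they cover counting error over genes, and genes are not replicates of a tissue.

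Length also differed with expression level. Among the 2104 genes at or above 28.8 FPKM in fat body that were not high, a comparison chosen after the values were seen, the median was 3 exons and 1344 bases (1269 to 1405). The interval of these genes overlaps that of the high genes. The share of these genes with 10 or more exons, 2.95% (2.31 to 3.76), was smaller than that of the whole high set. In both comparisons the high set also kept its genes below 28.8 FPKM, so the sets are not matched in level. Exon number and length of only the high genes at or above that floor are not given here. Within the high set, the median length was 1093.5 bases below 10 FPKM, 1557 bases from 10 to 100 FPKM, 1419 bases from 100 to 1000 FPKM and 1258 bases above. The genes high in the other tissues had medians of 2464.5 bases in ovary, 1572 bases in midgut and 1867 bases in Malpighian tubules. The extremes of the fat body set were 117 and 10482 bases, and the largest exon number was 18.

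Fat body-high genes often lay next to each other on the scaffolds. Of the 427 genes, 107 (25.1%, 21.2 to 29.4) had another fat body-high gene as the next reference gene on either side. Neighbouring members count each other, so the 107 are not independent and this interval is too narrow. Of the 8496 other expressed genes, 450 (5.30%, 4.84 to 5.79) had a fat body-high gene next to them. With equal sums the shares were 23.5% and 4.13%. Counting only neighbours on the same strand gave 14.99% against 2.45%, only those within 10 kb 21.1% against 3.88%, and only those from a different assembled gene 23.4% against 5.14%. The members exceeded the other expressed genes under each of these definitions.

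The high genes of the other tissues were also next to each other more often than the rest. The shares were 19.5% against 3.55% in midgut, 12.4% against 2.04% in Malpighian tubules and 10.4% against 2.79% in ovary. A larger set gives more neighbours, so the shares are to be read against those of the other genes and not against each other.

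**Figure D3:**
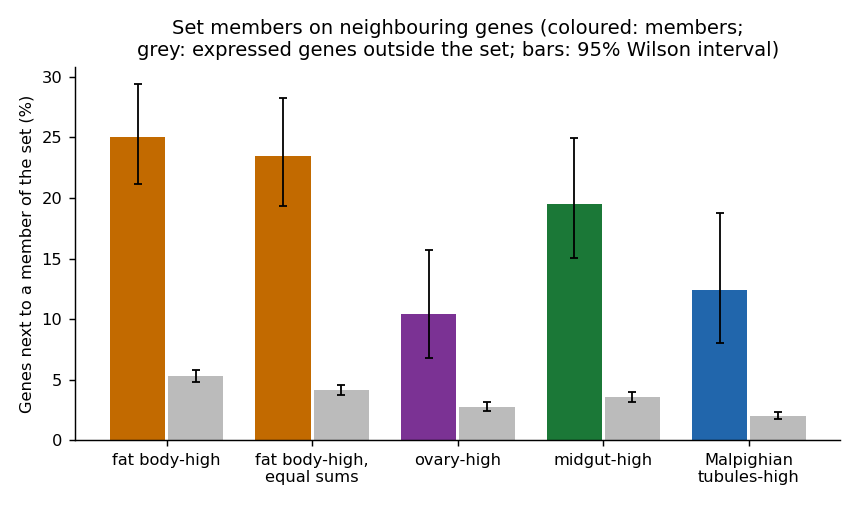
Percent of genes with a member of the named set as the next reference gene on either side. Coloured bars stand for members of the set, grey bars for expressed genes outside it, and lines for 95% Wilson intervals; 25.1% of the fat body-high genes and 5.30% of the other expressed genes have such a neighbour.

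The 107 genes formed 47 runs of consecutive members, of which 38 held 2 genes, 6 held 3, 2 held 4 and 1 held 5. The other 320 high genes stood alone, and the set was spread over 132 scaffolds. Of the 60 adjacent pairs, 33 (55%, 42.5 to 66.9) were on the same strand, 13 diverged and 14 converged. Of 6818 adjacent pairs of expressed genes, 39.1% were on the same strand. The gap between adjacent members had a median of 1593 bases. In 17 of the 47 runs the levels in fat body lay within 3 times of each other. Among the 58 scaffolds with at least 50 expressed genes, the lowest share of high genes was 0.813% on scaffold_00015 (1 of 123, 0.144 to 4.46). The highest was 14% on scaffold_00050 (7 of 50, 6.95 to 26.2), beside 4.79% of all expressed genes. These are the extremes of many scaffolds and rest on small counts.

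The longest run lay on scaffold_00005 (1732854 to 1741833) and held 5 genes in 8.98 kb, each with 2 exons and between 1392 and 1842 bases long. In fat body they stood, in gene order, at 58.9, 71.9, 140, 123 and 84.7 FPKM. In the other tissues none exceeded 5.18 FPKM, the level of the last gene in Malpighian tubules. The gene before the run had 10.9 FPKM in fat body and 27.6 FPKM in ovary, and the gene after it was listed at 0 in fat body. The 5 genes shared exon number, and their levels in fat body lay within 2.38 times of each other. The last gene had a ratio of 13.9 to the next tissue, and the others had ratios from 40.4 to 62.5. In the run, 3 genes lay on the plus strand and 2 on the minus strand. Reads of near-identical copies could be divided between such genes, and whether these 5 are copies could not be examined without their sequence.

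The second run, on scaffold_00008 (2317723 to 2341377), held 4 genes at 46.7, 1267, 97.6 and 67.1 FPKM in fat body. Its second gene was by far the most abundant, and the others lay within 3 times of each other. The third, on scaffold_00042 (1525798 to 1559296), held 4 genes at 110, 84.4, 887 and 80.7 FPKM. Here the third gene also had 145 FPKM in Malpighian tubules and 125 FPKM in midgut, and 2 of the 4 genes were called with equal sums. The gene before this run had 12.4 FPKM in fat body and 904 FPKM in midgut. The fourth run, on scaffold_00054 (1126696 to 1136315), held 3 genes at 111, 475 and 1314 FPKM, and the gene after it had 19.0 FPKM in fat body and 956 FPKM in midgut. Both of these runs thus bordered on a gene that was abundant in midgut.

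**Figure D4:**
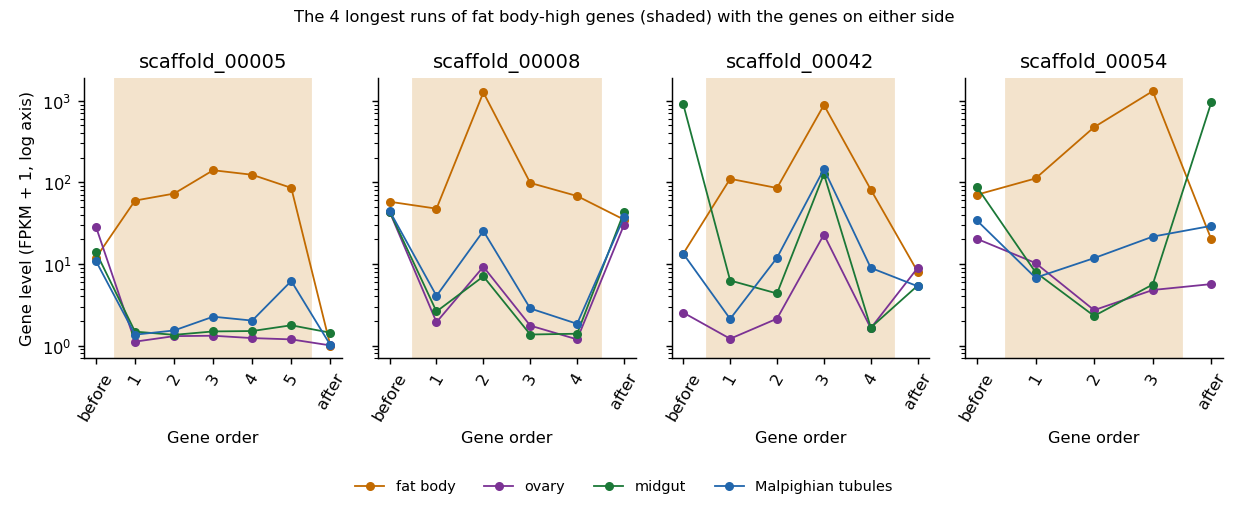
Levels (FPKM + 1, log axis) of the genes in the 4 longest runs of fat body-high genes, in their order on the scaffold, with the next gene on either side; the shaded part holds the run and each line is a tissue. The 5 genes on scaffold_00005 lie between 58.9 and 140 FPKM in fat body, and the runs on scaffold_00042 and scaffold_00054 border on genes at 904 and 956 FPKM in midgut.

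The number of isoforms that a high gene expressed in fat body was set beside that of other genes. An isoform was counted as expressed at 1 FPKM or more and at least 10% of its gene. These are the FPKM values that the rule also used. Of the high genes, 153 (35.8%, 31.4 to 40.5) expressed 2 or more isoforms in fat body, compared with 33.4% (32.4 to 34.5) of the 7689 other genes at 1 FPKM there. This measure varies with the level: among the other genes it was 21.5% from 1 to 10 FPKM in fat body and 45.1% from 10 to 100 FPKM. At 28.8 FPKM or more in fat body, the first quartile of the high genes and a floor chosen after the values were seen, it was 40.0% (34.8 to 45.5) of 320 high genes and 41.3% (39.3 to 43.5) of 2104 others. There were 23 high genes with at least 3 expressed isoforms and 3 with at least 4, and the largest number was 5. The main isoform in fat body was the annotated model in 54.3% of the high genes and an assembled form with a new junction in 41.9%, against 53.6% and 41.6% of the others.

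Where a high gene with several models had at least 5 FPKM in a second tissue, the isoform most abundant there could differ from that in fat body. It did so in 13 of 65 genes in ovary (12.1% to 31.3%), in 16 of 55 in midgut (29.1%, 18.8% to 42.1%) and in 18 of 112 in Malpighian tubules (16.1%, 10.4% to 24.0%). Among other genes the shares were 22.7%, 18.3% (16.9 to 19.7) and 15.6%. The midgut share was the highest of the 3, and its interval overlaps that of the other genes. In all, 29 high genes had another main isoform in at least 1 other tissue.

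The largest difference in isoform share was seen in a gene on scaffold_00051, plus strand. A transcript of 6 exons (522308 to 525071) had 202 FPKM in fat body, 0.613 FPKM in midgut, 1.57 FPKM in ovary and 2.63 FPKM in Malpighian tubules. It held 96.1% of the gene level in fat body and 4.51% in midgut. A transcript of 3 exons (525514 to 527293) had 8.13 FPKM in fat body, 13.0 FPKM in midgut, 3.54 FPKM in ovary and 11.7 FPKM in Malpighian tubules. It held 3.87% of the gene level in fat body, with 95.5% in midgut, 81.7% in Malpighian tubules and 69.2% in ovary. The upstream transcript thus carried nearly all of the fat body level, and the downstream transcript lay between 3.54 and 13.0 FPKM in all 4 tissues. The spans of these transcripts do not overlap, and the annotated model that joins them (523397 to 527189) had 0.105 FPKM in fat body.

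In the second such gene, on scaffold_00100, minus strand, a transcript of 7 exons (189924 to 193221) had 760 FPKM in fat body, 3.21 FPKM in midgut, 7.58 FPKM in ovary and 31.8 FPKM in Malpighian tubules. It held 91.2% of the gene in fat body and 7.08% in midgut. A transcript of 5 exons (246032 to 256185) held 82.9% in midgut, at 37.6 FPKM, and 0.112% in fat body. The annotated model of 40 exons (190355 to 248632) reaches from the one into the other and held 5.83% in fat body. The part that was abundant in fat body was therefore the short transcript at the downstream end. Whether either locus is a single gene was not tested.

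Single transcripts were also compared by the same limit. Of the 16255 transcripts of reference genes that reached 1 FPKM in any tissue, 665 (4.09%) were high in fat body. Of these, 579 belonged to 421 of the 427 high genes. Gene levels are sums over these transcripts, so that overlap is largely set by the rule. The other 86 lay in 79 genes that were not high as a whole, and 40 of these genes had a ratio of at least 2. Such a transcript held a median of 38.6% of its gene in fat body.

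The 23 fat body-low genes were close to the limit. In fat body they ranged from 0 to 48.4 FPKM with a median of 3.68 FPKM, and their medians were 27.0 FPKM in midgut, 18.3 FPKM in ovary and 19.1 FPKM in Malpighian tubules. They were between 3.01 and 7.65 times lower in fat body than in the lowest other tissue on the FPKM + 1 scale, with a median of 3.38. With deposited FPKM, midgut was the highest of the other 3 tissues for 16 genes, ovary for 4 and Malpighian tubules for 3. With equal sums this order changed: of the 71 low genes then called, midgut was highest for 16, ovary for 27 and Malpighian tubules for 28. Among the 23 low genes with deposited FPKM, the lowest of the other 3 was ovary for 11, Malpighian tubules for 10 and midgut for 2. These counts are not given here for equal sums. With deposited FPKM the other 3 tissues lay within 1.5 times of each other for 7 of the 23 genes, which also depends on the scaling. The set held 0.0162% of the FPKM sum in fat body, 0.176% in Malpighian tubules, 0.142% in ovary and 0.128% in midgut.

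ASTEI01460 (scaffold_00005, 2549481 to 2551136, plus strand, 4 exons, 1214 bases) was the most abundant in its lowest other tissue. It had 48.4 FPKM in fat body (bounds 35.9 to 60.8), 223 FPKM in midgut, 172 FPKM in ovary and 152 FPKM in Malpighian tubules. ASTEI08201 (scaffold_00063, 353920 to 361232, minus strand, 5 exons, 2437 bases) had 22.9 FPKM in fat body (15.2 to 30.6), 496 FPKM in midgut, 71.0 FPKM in ovary and 130 FPKM in Malpighian tubules. The first lay between 152 and 223 FPKM outside fat body and the second was highest in midgut. The second also lay just inside the limit, 3.01 times lower in fat body than in ovary. The gene just outside, on scaffold_00022 (annotated at 591988 to 599501), was 2.85 times lower, with 11.5 FPKM in fat body, 123 FPKM in midgut, 34.7 FPKM in ovary and 53.0 FPKM in Malpighian tubules.

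Of the next 10 low genes, 2 lay near each other on scaffold_00003 and were highest in Malpighian tubules. The gene at 1714916 to 1718324 (8 exons) had 17.3 FPKM in fat body, 62.0 FPKM in midgut, 58.8 FPKM in ovary and 247 FPKM in Malpighian tubules, and was not called with equal sums. The gene at 1704176 to 1712394 (3 exons) had 7.997 FPKM in fat body (0.586 to 18.1), 40.5 FPKM in midgut, 40.9 FPKM in ovary and 173 FPKM in Malpighian tubules. Both had nearly the same level in ovary and in midgut with deposited FPKM, which depends on the scaling. A gene of 6 exons on scaffold_00006 (2299221 to 2308569) had 8.06 FPKM in fat body, 79.8 FPKM in midgut, 29.7 FPKM in ovary and 43.8 FPKM in Malpighian tubules.

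With deposited FPKM, even levels outside fat body were seen in another 4 of the 10. The gene on scaffold_00069 (324653 to 384029, 13 exons, 6837 bases) had 2.59 FPKM in fat body (1.53 to 4.003), 27.0 FPKM in midgut, 25.2 FPKM in ovary and 26.8 FPKM in Malpighian tubules. The gene on scaffold_00029 (1264762 to 1276585, 6 exons) had 5.18 FPKM in fat body, 29.7 FPKM in midgut, 29.4 FPKM in ovary and 29.6 FPKM in Malpighian tubules. The gene on scaffold_00083 (681996 to 761197, 6 exons) had 5.28 FPKM in fat body, 19.4 FPKM in midgut, 20.4 FPKM in ovary and 20.1 FPKM in Malpighian tubules, and was not called with equal sums. These 3 genes, like ASTEI01460, shared an assembled gene with another reference gene, so the assignment of their reads is uncertain. The fourth, on scaffold_00133 (1 to 15101, 10 exons), shared none and had 3.68 FPKM in fat body (2.23 to 5.16), 18.2 FPKM in midgut, 19.5 FPKM in ovary and 17.0 FPKM in Malpighian tubules. In each of the 4, fat body alone stood below otherwise nearly equal levels with deposited FPKM. Equal sums multiply ovary by 2.21, Malpighian tubules by 1.66 and midgut by 0.786, so this evenness does not hold under that scaling.

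The last 3 of the 10 had 3.41 to 5.03 FPKM in fat body and 18.3 to 54.8 FPKM elsewhere. They lay on scaffold_00030 (1496075 to 1500114 and 55674 to 65950) and scaffold_01006 (2563 to 3417). Below 1 FPKM in fat body there were 3 low genes. The only low gene listed at 0 in fat body, on scaffold_00038 (27768 to 28462, 2 exons), had 18.2 FPKM in midgut, 8.62 FPKM in ovary and 6.65 FPKM in Malpighian tubules, and was singled out after its values were seen.

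**Figure D5:**
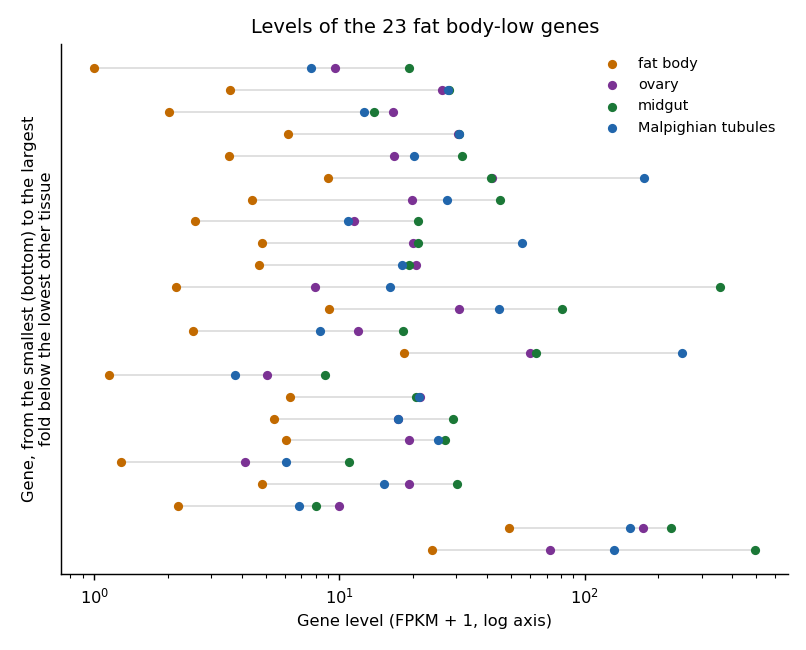
Levels of the 23 fat body-low genes in each tissue (FPKM + 1, log axis), with 1 row per gene, ordered by how far fat body lies below the lowest other tissue. The fat body point is leftmost in every row, and with deposited FPKM midgut is the highest tissue in 16 rows, a count that depends on the scaling (16 of 71 low genes with equal sums).

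In structure, the low genes had a median of 5 exons (3 to 7) and 1831 bases (979 to 4273), 0 of 23 had a single exon, which allows a share of up to 14.3% (upper end of the Wilson interval), and 3 had 10 or more exons. No low gene had another low gene next to it. At this number of genes a neighbour share of up to 14.3% lies in the interval. Of the 23, 16 (69.6%, 49.1 to 84.4) expressed 2 or more isoforms in another tissue. The share was 48.9% (47.6 to 50.2) of 5946 genes at 2 FPKM or more in those 3 tissues. These intervals overlap. The 5946 genes were not matched to the low genes in level, with which this measure varies. Of the low genes, 7 shared an assembled gene with another reference gene, against 32 (7.49%) of the high genes and 13.4% of the expressed genes.

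Assembled loci outside the reference genes were compared by the same limits. Of 2237 intergenic loci at 1 FPKM or more, 66 (2.95%, 2.33 to 3.74) were high in fat body and 5 (0.224%) were low. With equal sums 63 (2.82%) were high, 61 of them under both scalings. The 66 loci held 1.98% of the FPKM sum of fat body, and 17 of them reached 100 FPKM. A single exon was found in 36 of them (54.5%, 42.6 to 66.0), against 72.0% (70.1 to 73.9) of the other 2171 loci. The nearest reference gene was itself fat body-high for 7 of the 66 (10.6%, 5.23 to 20.3) and for 27 of the others (1.24%, 0.856 to 1.803). Both shares are over all loci, 66 and 2171. Many of the 66 had no nearest reference gene listed and could not count. The share among loci with a nearest gene was not computed.

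The most abundant of these loci, on scaffold_00004 (3194804 to 3195385, 2 exons), had 7411 FPKM in fat body, 1089 FPKM in midgut, 261 FPKM in ovary and 1006 FPKM in Malpighian tubules. This is above every fat body-high reference gene, and its ratio of 6.80 was 4.75 with equal sums. The second, on scaffold_00011 (1365001 to 1366080, 4 exons), had 4247 FPKM in fat body, 19.1 FPKM in midgut, 16.0 FPKM in ovary and 87.8 FPKM in Malpighian tubules. It ends 1481 bases from the annotated model of ASTEI02815, on the same strand, and its levels follow the same order of tissues. The third, on scaffold_00096 (252699 to 253197, 2 exons), had 2954 FPKM in fat body, 23.1 FPKM in midgut, 7.01 FPKM in ovary and 30.2 FPKM in Malpighian tubules. It lies 405 bases from a fat body-high gene at 252 FPKM. Whether these loci belong to the genes beside them was not tested.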

How the data were processed

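RNA from 4 tissues was sequenced as paired ends, with 1 library per tissue on 2 lanes, per the labels. CASAVA 1.8, HISAT2, StringTie 1.2.1 and Cuffdiff are named in the submitters' processing notes. The genome build is not given in the sources used here. The authors deposited FPKM values with bounds for 25785 transcripts, per the file headers, scaled so that column sums differ between tissues. The deposited values named counts are a scaled signal and not raw counts. Each tissue's low values lie on 2 steps, and dividing by these gave the estimated fragments. No count model was fitted.

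Gene levels were FPKM summed over transcripts that match, share a junction with, overlap the exons of, or lie as a single exon in a reference gene. Failed or overloaded estimates numbered 24 transcripts in midgut, 10 in Malpighian tubules and 0 elsewhere. Limits were 5 and 1/3 on FPKM + 1. Shares have 95% Wilson intervals and medians have order-statistic intervals, which cover counting error only. Scaling to equal sums used 1000000 per column over all transcripts. Calls were checked on simulated levels with members planted beyond the limits, and runs on a small made-up gene order. These checks cover the code and not the error of the calls. Python 3.11.15, pandas 2.3.3, numpy 2.4.6 and scipy 1.17.1 were used.

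The members, lists and comparisons were chosen with earlier results of these data known. By rule, 2 identifiers per direction are printed: the 2 high genes with the highest fat body FPKM and the 2 low genes with the highest level in the lowest other tissue. The next 10 of each, the 4 longest runs, the 2 genes whose isoform shares differed most between tissues, the 3 most abundant intergenic loci and the genes next to each limit are given by position. Cell type marker lists could not be used, since 0 identifiers matched the 15394 genes of the reference table. Other scalings, pseudocounts, limits, transcript classes, filters and neighbour definitions were tried.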

Additional observations from a re-analysis of the deposited data

Results flagged for a closer look

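Signal appeared in transcripts that the gene sums left out. Of the transcripts at 1 FPKM or more, 8 of 248 antisense to a reference gene, 2 of 72 inside introns and 12 of 307 just past a gene end were at least 5 times higher in fat body than in every other tissue, 22 in all. These are 3.23%, 2.78% and 3.91%, which lie below the 4.09% of the transcripts of reference genes and the 4.79% of genes, so such transcripts were not called more often than the background. Among transcripts in repeats it was 2 of 297 (0.673%). The most abundant opposite-strand transcript, on scaffold_00058 (530006 to 530708, 1 exon), had 1449 FPKM in fat body, 10.6 FPKM in midgut, 9.05 FPKM in ovary and 33.4 FPKM in Malpighian tubules. It meets the end of a fat body-high gene with 2019 FPKM. The most abundant inside an intron, on scaffold_00085 (135199 to 137131, 2 exons), had 231 FPKM in fat body and at most 4.19 FPKM elsewhere. It was assigned to the fat body-high gene with 2512 FPKM described above, but lies outside the span of that gene's main isoform. The most abundant just past a gene end, on scaffold_01283 (2 to 431, 1 exon), had 106 FPKM in fat body and at most 13.0 FPKM elsewhere, and the gene beside it was not called high, at a ratio of 2.40.

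The authors' deposited lists and the FPKM table give different values for 5 transcripts of ASTEI04270 (scaffold_00021, 2216960 to 2224476, minus strand), a gene singled out for this difference. With the values of the authors' deposited lists the gene summed to 7721 FPKM in fat body, 676 FPKM in midgut, 52.0 FPKM in ovary and 1001 FPKM in Malpighian tubules, a ratio of 7.71. With the FPKM table it summed to 2804 FPKM in fat body, 997 FPKM in midgut, 13.8 FPKM in ovary and 700 FPKM in Malpighian tubules, a ratio of 2.81. By the authors' deposited lists it would be fat body-high and the most abundant of the set. Which values are right was not tested.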

How the results depend on the processing

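The count of 427 high genes was 266 at limits of 10 and 1/5, 898 at 2 and 1/2 and 241 with a pseudocount of 10 FPKM, and stayed within 1.5 times under the other 9 alternatives. The count of 23 low genes was 64 with annotated transcripts only, 71 with equal sums, 55 with sums that leave out the 100 most abundant genes of each tissue, 51 and 0 with pseudocounts of 0.1 and 10 FPKM, 3 and 115 at the stricter and looser limits, and 2 with the authors' bounds. The share of fat body FPKM in high genes, 13.8%, was 7.24% with annotated transcripts only, 13.98% with all classes, 11.6% with equal sums, 12.2% without the top 100 genes, 13.4% with median-of-ratios scaling, 10.6% and 17.5% at the stricter and looser limits, 13.9% and 12.8% with pseudocounts of 0.1 and 10, and 12.7% with the bounds. That of low genes, 0.0162%, was 0.00733% with annotated transcripts, 0.0705% with equal sums, 0.0938% without the top 100, 0.0138% with median ratios, 0.000386% at the stricter limits and with the bounds, 0.0929% at the looser limits, and 0.0203% and 0 with the pseudocounts.

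The neighbour share of high genes, 25.1%, was 31.3% at the looser limits, 31.4% and 17.0% with pseudocounts of 0.1 and 10, 21.1% within 10 kb and 14.99% on the same strand. The isoform share of high genes, 35.8%, was 28.6% with isoforms at 20% of the gene and 29.3% with a pseudocount of 0.1, and that of low genes, 69.6%, was 33.3% at the stricter limits and 41.2% with a pseudocount of 0.1. The median length of high genes was 1188 bases with the longest annotated transcript, and that of low genes 4917.5 with annotated transcripts only and 5160.5 with the bounds, where the median exon number was 8. The cause of these changes was not tested. Under the alternatives tried, the median exon number of high genes moved by no more than its interval. With a pseudocount of 10 FPKM no low gene was left to describe. No paired analysis was possible because each tissue has 1 library. With 1 library per tissue, neither depth nor these alternatives measure the spread between mosquitoes.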
